A study of Mus musculus with 12 samples.

Results

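The genes described here encode the enzymes that attach glutathione, glucuronic acid or sulfate to drugs, hormones and other lipophilic compounds, together with the carboxylesterases and epoxide hydrolases that open esters and epoxides. Members were taken by name, from probes annotated to a gene symbol of the Gst, Ugt, Sult, Ces or Ephx families. By that rule 4 named genes of these families were left out. It gave 72 genes of the 34741 named on the array, through 104 of its 55681 probes: 20 glutathione S-transferase genes, 14 UDP-glucuronosyltransferase genes, 15 sulfotransferase genes, 19 carboxylesterase genes and 4 epoxide hydrolase genes. The rule uses names and no measured value, but these families were picked with earlier results of these data known.

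Liver RNA was taken from C3H/HeN male mice of an F2 generation at about 74 weeks of age. In the arsenite line, pregnant F0 females drank water with 85 ppm sodium arsenite from day 8 to day 18 of gestation, F1 animals were bred at 10 weeks, and neither F1 nor F2 animals received arsenite. The control line had plain tap water. The 12 arrays, 1 sample each, form 4 groups of 3: normal liver, non-tumour liver and tumours from the arsenite line, and non-tumour liver from controls. Tumours of the control line were not analysed here, so the tumour comparisons concern the arsenite line alone. Samples carry numbers within a group, and no label says that they came from separate mice, so the p-values measure the spread between numbered samples.

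Conjugation is the second phase of detoxification. Glutathione S-transferases couple reactive electrophiles to glutathione, UDP-glucuronosyltransferases of the endoplasmic reticulum couple phenols, bilirubin and steroids to glucuronic acid from UDP-glucuronate, and cytosolic sulfotransferases use PAPS as the sulfate donor for phenols, steroids and bile acids. Carboxylesterases hydrolyse ester drugs and, in the liver, also lipid esters, and epoxide hydrolases turn epoxides into diols. Hepatocytes carry most of these enzymes, and several mouse family members lie side by side in tandem gene clusters.

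Levels are log2 signals relative to the 75th percentile of the array, which is 0 on this scale, and levels of different probes are not compared with each other. The 75th percentile signal lay between 153 and 245 in arbitrary units, and 40.5% to 46.9% of spots outside the controls were well above background. Over all genes, log2 values of 2 arrays outside tumours correlated at 0.986 to 0.993 and those of a tumour and another array at 0.905 to 0.934, across genes that are not independent replicates. The 8 hepatocyte markers were above background on every array. Against non-tumour liver of the same line, Tat fell by 2.63 in tumours, Cps1 by 2.13 and Pck1 by 1.94, Apoa1 rose by 1.17, and Alb, Apob, Serpina1a and Ttr were not called. The summed signal of these markers, in which the brightest probes weigh most, was 4162 to 5164 in tumours against 4691 to 5255, in units of the 75th percentile. In the same groups 7 stellate cell and fibroblast markers summed to 18.42 to 24.11 in tumours against 69.31 to 75.91, mostly through Dcn, with 5 of 7 called lower and Col1a1 higher by 2.11. Among those called lower, Des was below background on every array of both groups. Of 7 macrophage markers 5 were called lower and 0 higher, and they summed to 28.81 to 50.19 against 79.1 to 104.8. Of 7 endothelial markers Clec4g and Stab2 were called lower and Lyve1 higher by 1.70, and they summed to 55.32 to 75.48 against 93.68 to 113.8. Bile duct markers summed to 1.983 to 2.781 against 1.845 to 2.934, T, NK and B cell markers to 5.314 to 6.143 against 5.234 to 6.595, and red cell markers to 50.16 to 119.5 against 104 to 261.1. Of all genes tested, 17.1% were called higher and 30% lower in tumours than in that non-tumour liver. The part of these cell types in the results below was not tested. All tumour arrays lay on 1 slide, the normal livers on another and the non-tumour livers of both lines together on the remaining one, so slide and group cannot be told apart in the comparisons with tumours or with normal liver.

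Most members were lower in tumours. Of the 72 members, 62 passed the filter on dim probes, which asked that every array of 1 or more groups read well above background. Against non-tumour liver of the arsenite line, 9 of these 62 were called higher and 42 lower (limma, adjusted p under 0.05 by Benjamini-Hochberg over all 18101 genes), and 11 were not called. Over all genes 47.1% were called in this comparison, 17.1% higher and 30% lower, against 82.3% of the members tested. The members' median log2 difference was -1.28, and that of all genes tested -0.13. Against normal liver of the same line, with the same tumour arrays, the counts were again 9 higher, 42 lower and 11 not called, beside 48.1% of all genes called, 17.2% higher and 31% lower, and the members' median was -1.26 against -0.15 over all genes. Tumour and non-tumour arrays did not overlap in 50 of the 62, beside 56.5% of all genes, and tumour and normal arrays likewise in 50, beside 58.8%.

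Among called genes, the scaling of the arrays moved the share that was higher more for all genes than for the members. The median of all genes did not move more than that of the members. Of all genes called against non-tumour liver, 36.4% were higher, and this share was 46.5% under quantile normalisation and 53.4% with the percentile taken over probes detected on all arrays, which put the median of all genes at 0.03. Of the members called, 17.6% were higher, and 22% and 20.8% under those settings. The median of the members tested moved from -1.28 to -1.12 under both, and that of all genes from -0.13 to -0.05 under quantile normalisation. Against normal liver the shares were 35.7%, 46% and 50.7% of all genes and 17.6%, 24% and 22.4% of members. No member called in the tumour comparisons changed direction under any alternative that tested it.

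The filter itself bears on these counts, since Gstcd, Sult2a1, Sult2a3, Sult2a6 and Sult2b1 passed it through the tumours alone and had to be high there, whereas Ces1h, Ces4a, Sult2a7 and Ugt1a6a were above background on no tumour array. Ces4a passed the filter through normal liver alone, which fixed the direction of its fall against normal liver, counted among the 42 lower there. Among the 48 members above background on all 12 arrays, 5 were called higher and 35 lower than in non-tumour liver, where 15.4% and 33.1% of genes meeting that filter were called. With the members below background in 1 group set to the bound of their difference, the median was -1.23 against non-tumour liver. In whole tissue, fewer cells that express a gene and less RNA per cell cannot be told apart.

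**Figure D1:**
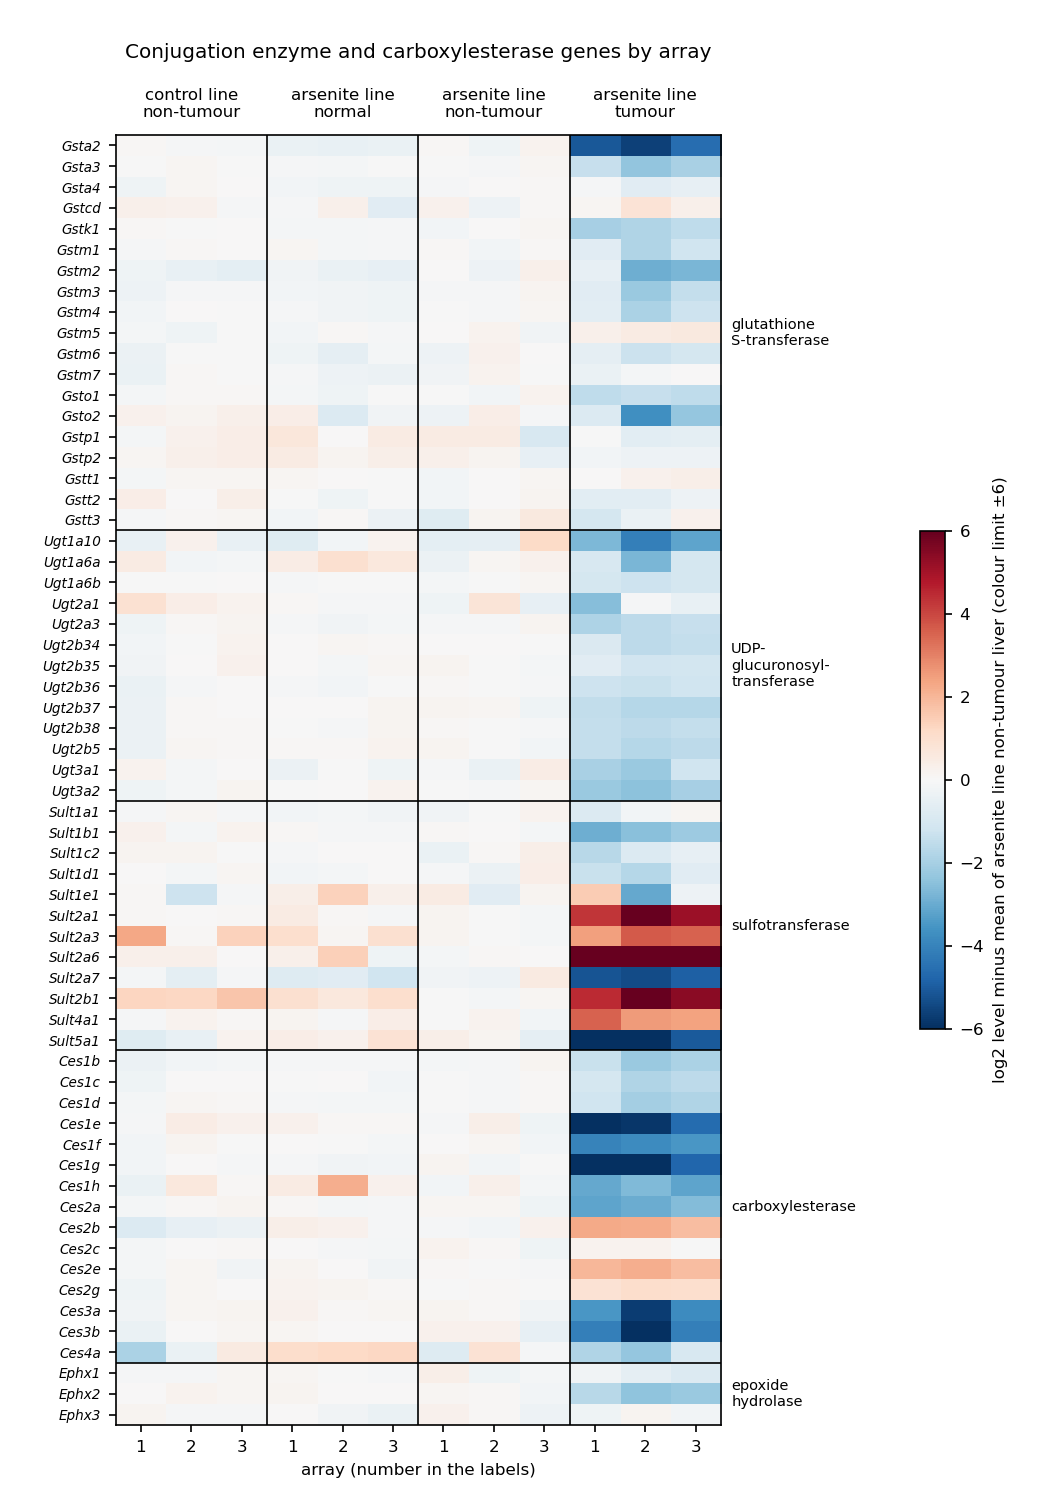
Heat map of the 62 tested members (rows, by family) on the 12 arrays (columns, by group). Colour gives the log2 level of a member minus its mean in arsenite line non-tumour liver, with colours limited at 6 on either side. The 9 columns outside tumours are nearly white except for a few dim genes, whereas the 3 tumour columns are blue in most rows and red for Sult2a1, Sult2a3, Sult2a6, Sult2b1 and Sult4a1.

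**Figure D2:**
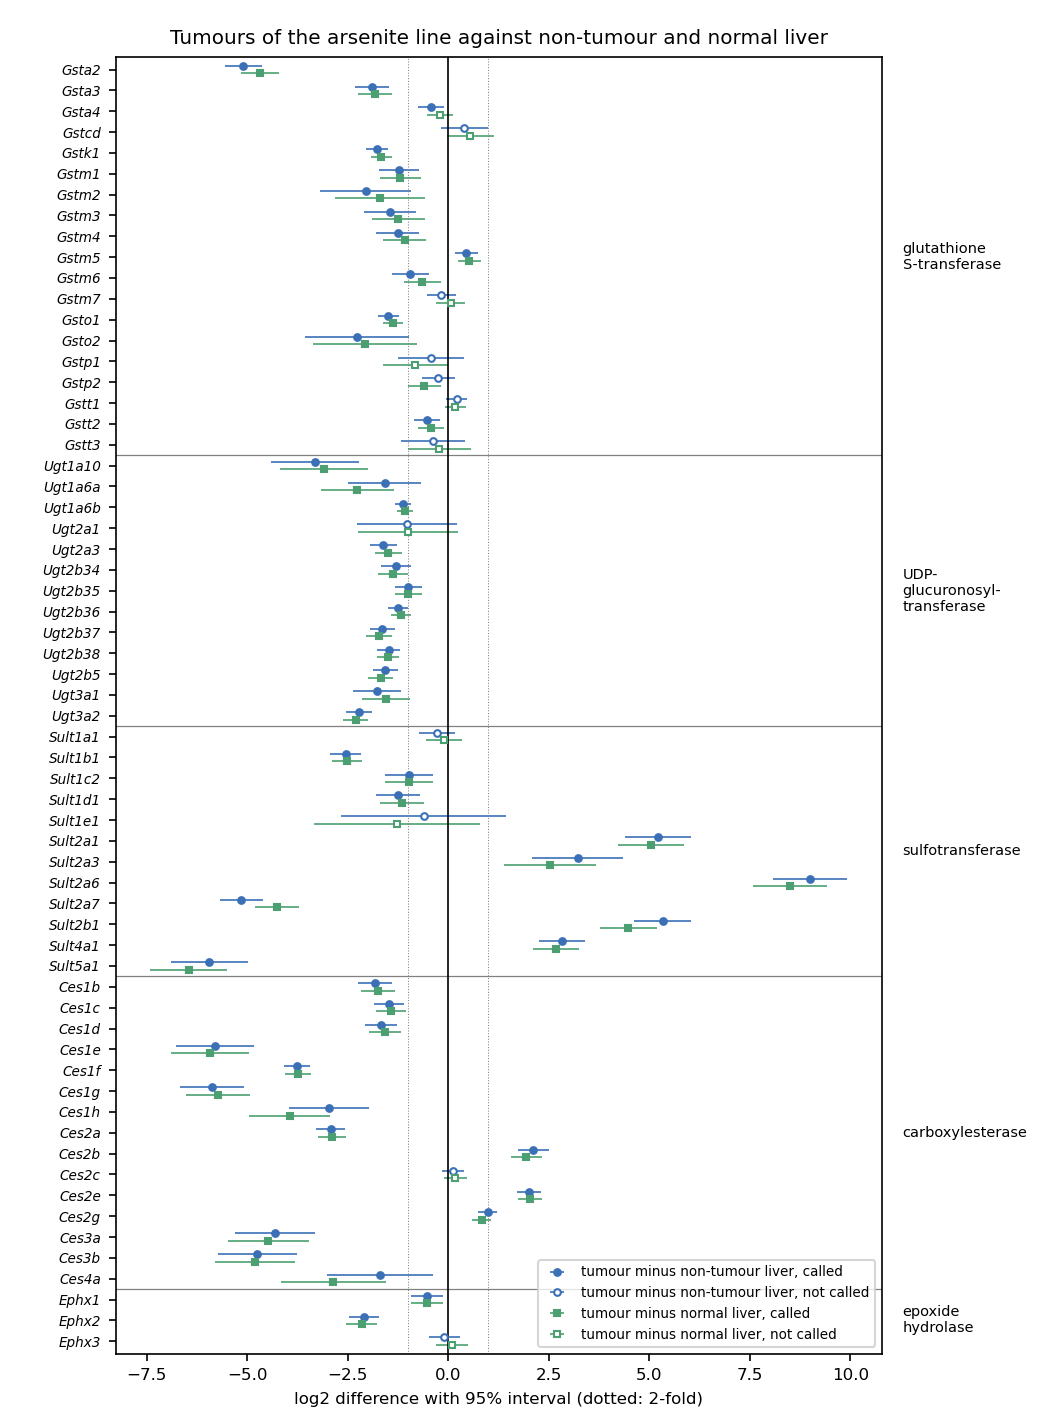
Log2 differences of the 62 tested members with 95% intervals, for tumours minus non-tumour liver (circles) and tumours minus normal liver (squares), which share the 3 tumour arrays. Filled symbols were called. Most lie left of 0, such as Ces1g at -5.87 against non-tumour liver, and the values of genes below background on some or all arrays of a group, such as Sult5a1 and Sult2a6, rest in part on signals under the detection limit.

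Among the glutathione S-transferases, 12 of the 19 tested were called lower than in non-tumour liver, 1 higher and 6 were not called, with a median difference of -0.95. Gsta2, an alpha-class enzyme known for its induction by antioxidants, stood at 5.31, 5.0 and 5.44 in arsenite-line non-tumour liver, 4.86, 4.81 and 4.87 in normal liver, 5.31, 5.16 and 5.16 in control-line non-tumour liver and 0.16, -0.35 and 0.66 in tumours. All 3 tumours were far below the other 9 arrays. It fell by 5.09 ± 0.21 against non-tumour liver (34.1-fold, adjusted p = 8.26e-08) and fell by 4.69 ± 0.21 against normal liver (adjusted p = 1.7e-07), where a value after ± is the standard error of the fit throughout. Its probe is printed because no other tested gene of the family fell as far:
Gsta2 probe, chr9:78178856-78178915 (mm9, minus strand): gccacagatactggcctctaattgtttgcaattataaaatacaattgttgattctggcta

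Gsta3, the alpha-class enzyme that conjugates aflatoxin epoxide in mouse liver, lay at 9.42 to 9.64 on the 9 arrays outside tumours and at 8.13, 7.17 and 7.60 in tumours. It fell by 1.89 ± 0.19 (3.72-fold, adjusted p = 2.38e-05), and fell by 1.82 ± 0.19 against normal liver (adjusted p = 3.17e-05). Gsta4, which conjugates the lipid peroxidation product 4-hydroxynonenal, moved much less. It stood at 2.94, 3.03 and 3.06 in non-tumour liver, 2.86, 2.74 and 2.76 in normal liver and 2.92, 2.33 and 2.53 in tumours, so that tumour 1 lay above all normal livers and just below the non-tumour ones. Its difference of -0.42 ± 0.15 from non-tumour liver was called (adjusted p = 0.037) but not with the sample number as a block (adjusted p = 0.123), nor without any 1 of the non-tumour samples or of tumours 2 and 3 (adjusted p = 0.0586 to 0.136). That of -0.19 ± 0.15 from normal liver was not called (adjusted p = 0.298), but was without tumour 1 (-0.36, adjusted p = 0.0382).

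Gstk1, the kappa-class enzyme of mitochondria and peroxisomes, was at 6.13, 6.34 and 6.44 in non-tumour liver, 6.19, 6.19 and 6.22 in normal liver and 4.32, 4.52 and 4.78 in tumours. It fell by 1.76 ± 0.12 (adjusted p = 2.12e-06) and by 1.66 ± 0.12 against normal liver (adjusted p = 3.4e-06). Gsto1, the omega-class enzyme that also reduces methylated arsenic, was at 6.08, 5.92 and 6.30 in non-tumour liver, 6.0, 5.86 and 6.10 in normal liver and 4.56, 4.70 and 4.59 in tumours, with all tumours below the rest. It fell by 1.48 ± 0.11 (adjusted p = 4.46e-06) and fell by 1.37 ± 0.11 against normal liver (adjusted p = 8.1e-06). In control-line non-tumour liver Gsto1 stood at 5.98, 6.16 and 6.17, with a 95% interval of -0.26 to 0.25 for the difference between the lines there. The related Gsto2 fell by 2.27 ± 0.58 (adjusted p = 0.00865, and 0.0769 with the sample number as a block) and by 2.07 ± 0.58 against normal liver (adjusted p = 0.014, and 0.0538 without normal sample 1). It was above background in 1 of 3 tumours and ranged from -5.40 to -2.52 over them.

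Of the mu-class genes, which form a cluster on chromosome 3 and handle a broad set of epoxides and quinones, 5 of 7 were called lower and 1 higher than in non-tumour liver. Gstm1 was at 8.44, 8.23 and 8.45 in non-tumour liver, 8.48, 8.26 and 8.28 in normal liver and 7.70, 6.56 and 7.20 in tumours. It fell by 1.22 ± 0.23 (adjusted p = 0.00132) and by 1.19 ± 0.23 against normal liver (adjusted p = 0.00158). The array annotation places the probe that stands for Gstm1 on chromosome 5, whereas its other probe lies in the chromosome 3 cluster and gave a difference of -1.36. Gstm3 was at 5.8, 5.78 and 6.03 in non-tumour liver, 5.69, 5.66 and 5.63 in normal liver and 5.17, 3.63 and 4.45 in tumours, and fell by 1.45 ± 0.29 (adjusted p = 0.00222) and 1.24 ± 0.29 against normal liver (adjusted p = 0.00563). The spread between tumours was wide in this class. Gstm2 was at 5.98, 3.55 and 3.76 in tumours, with tumour 1 inside the range of 5.90 to 6.78 of the other arrays, and it fell by 2.05 ± 0.51 (adjusted p = 0.00707), which missed the threshold with the sample number as a block (adjusted p = 0.0523). Against normal liver Gstm2 fell by 1.69 ± 0.51 (adjusted p = 0.0188), and was not called without normal sample 1, tumour 2 or tumour 3 (adjusted p = 0.0544, 0.0711 and 0.0681). Gstm4 fell by 1.26 ± 0.24, and Gstm6 by 0.95 ± 0.21 (adjusted p = 0.00354, and 0.0635 with the block). The fall of Gstm6 against normal liver was not called without normal sample 1 or 3 or tumour 2 or 3 (adjusted p = 0.0671 to 0.0987). Gstm1, Gstm2, Gstm3, Gstm4 and Gstm6 were each highest in tumour 1 and lowest in tumour 2. Gstm5, first in the cluster by probe position, was the sole tested gene of the family called higher, at 2.09, 2.29 and 1.85 in non-tumour liver, 1.90, 2.13 and 1.99 in normal liver and 2.37, 2.57 and 2.65 in tumours. The rise of 0.45 ± 0.13 (adjusted p = 0.0148) was not called with the block (adjusted p = 0.0798), without non-tumour sample 3 (adjusted p = 0.0561) or without tumour 3 (adjusted p = 0.0516). Against normal liver it was 0.52 ± 0.13 (adjusted p = 0.00711).

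Gstp1, the pi-class enzyme that is a classic marker of preneoplastic foci in rat liver, was not called in either tumour comparison with all arrays in the fit. It stood at 7.94, 7.91 and 6.46 in non-tumour liver, 8.12, 7.46 and 7.91 in normal liver, 7.34, 7.71 and 7.86 in control-line non-tumour liver and 7.40, 6.80 and 6.85 in tumours. Non-tumour sample 3 of the arsenite line was lower than every other array, tumours included, so the groups overlapped. The difference from non-tumour liver was -0.42 ± 0.37 (adjusted p = 0.371) and became -0.91 (adjusted p = 0.0133) without that sample. Against normal liver it was -0.81 ± 0.37 (adjusted p = 0.0917), and all 3 tumours were below all 3 normal livers. It was called lower there in a fit of the 6 arrays alone (adjusted p = 0.0336) and with array weights (-0.91, adjusted p = 0.0445). Gstp2, its neighbour on chromosome 19, was likewise lowest in that non-tumour sample, at 9.56, 9.45 and 8.80, and stood at 9.12, 8.99 and 8.96 in tumours and 9.77, 9.45 and 9.62 in normal liver. It fell by 0.59 ± 0.18 against normal liver (adjusted p = 0.0214), a call lost without normal sample 1 or 3 or tumour 2 or 3 (adjusted p = 0.0529 to 0.0745), and was not called against non-tumour liver (-0.25 ± 0.18, adjusted p = 0.293), where leaving out the same sample gave -0.48 (adjusted p = 0.0123). A Gstp1 and a Gstp2 probe share 30 of 35 bases where they overlap, and whether either probe also bound the other gene's RNA was not tested.

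In the theta class, whose Gstt1 activates dihalomethanes, Gstt1 stood at 7.29, 7.48 and 7.58 in non-tumour liver, 7.55, 7.49 and 7.41 in normal liver and 7.46, 7.69 and 7.81 in tumours and was not called (0.21 ± 0.12, adjusted p = 0.173). A second, dimmer Gstt1 probe at chr10:75259864-75259923 (mm9) was higher in tumours by 1.11 ± 0.12 (adjusted p = 3.4e-05 over all probes), so the probes of Gstt1 disagree. The brighter probe was also called higher under quantile normalisation (0.42, adjusted p = 0.0103). Gstt2 fell by 0.52 ± 0.15 (adjusted p = 0.0141), a call lost under quantile normalisation (-0.36, adjusted p = 0.0697) and without non-tumour sample 3 (adjusted p = 0.0529) or tumour 2 (adjusted p = 0.0504). Against normal liver its fall was lost without normal sample 1 or 3 or tumour 1 or 2 (adjusted p = 0.096 to 0.108). Gstt3, Gstm7 and Gstcd were not called in either tumour comparison. Gstcd was called higher than in normal liver without normal sample 2 (0.77, adjusted p = 0.0401). It passed the filter through the tumours alone and was below background on all other arrays, so that call is no evidence of a rise. With normexp background correction its difference from normal liver was -0.136.

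The UDP-glucuronosyltransferases moved together. Of 13 tested, 12 were called lower than in non-tumour liver and 0 higher, with Ugt2a1 alone not called, and their median difference was -1.57. Against normal liver the counts in each of the 5 families equalled those against non-tumour liver. Ugt3a2, which uses other sugars than glucuronic acid, was at 5.40, 5.37 and 5.55 in non-tumour liver, 5.43, 5.48 and 5.64 in normal liver, 5.17, 5.33 and 5.58 in control-line non-tumour liver and 3.2, 2.98 and 3.47 in tumours. Every tumour was below every other array. It fell by 2.22 ± 0.14 (4.66-fold, adjusted p = 1.38e-06) and by 2.30 ± 0.14 against normal liver (adjusted p = 1.28e-06). Its neighbour Ugt3a1, which uses N-acetylglucosamine, was at 2.64, 2.32 and 3.18 in non-tumour liver, 2.34, 2.68 and 2.47 in normal liver and 0.79, 0.50 and 1.54 in tumours, and fell by 1.77 ± 0.27 (adjusted p = 0.000381).

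The Ugt2 genes, whose products glucuronidate steroids, bile acids and drugs, form a cluster on chromosome 5 that spanned 570 kb between the first and last probe (mm9). Of its 8 tested members, 7 were called lower, by 0.99 to 1.64. Ugt2b38 was at 7.82, 7.73 and 7.65 in non-tumour liver, 7.71, 7.66 and 7.88 in normal liver and 6.30, 6.15 and 6.31 in tumours, and fell by 1.48 ± 0.13 (adjusted p = 9.29e-06) and 1.5 ± 0.13 against normal liver (adjusted p = 9.09e-06). Ugt2b5 was at 6.81, 6.63 and 6.5 in non-tumour liver, 6.71, 6.71 and 6.86 in normal liver and 5.23, 4.92 and 5.08 in tumours, and fell by 1.57 ± 0.14 (adjusted p = 1.29e-05) and 1.68 ± 0.14 (adjusted p = 8.82e-06). Ugt2b37 was at 5.60, 5.55 and 5.19 in non-tumour liver, 5.49, 5.49 and 5.62 in normal liver and 3.97, 3.74 and 3.72 in tumours, and fell by 1.64 ± 0.14 (adjusted p = 9.67e-06) and 1.72 ± 0.14 (adjusted p = 7.33e-06). Tumours were well apart from the other arrays for each of these genes, but a Ugt2b5 and a Ugt2b37 probe share 46 of 55 overlapping bases, and whether one probe also bound the other gene's RNA was not tested.

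Ugt2a3 was at 5.61, 5.62 and 5.87 in non-tumour liver, 5.65, 5.48 and 5.60 in normal liver and 3.84, 4.13 and 4.31 in tumours, and fell by 1.61 ± 0.15 (adjusted p = 1.35e-05). Ugt2b35 changed least among the called genes of the cluster, from 3.85, 3.69 and 3.59 in non-tumour liver and 3.73, 3.60 and 3.83 in normal liver to 3.01, 2.57 and 2.59 in tumours, by 0.99 ± 0.15 (adjusted p = 0.000411). Ugt2b34 and Ugt2b36 fell by 1.30 ± 0.17 and 1.25 ± 0.11. Ugt2a1, best known from olfactory tissue, was above background on all 3 arrays of the control line alone and varied from -5.25 to -2.76 over tumours (difference -1.03 ± 0.56, adjusted p = 0.155).

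The Ugt1 genes share their last exons and differ in the first, so a probe in the shared part reads the whole locus. The brighter probe under the symbol of Ugt1a6b, an enzyme of planar phenols, lies at chr1:90115493-90115552 (mm9), near the Ugt1a6a probe at chr1:90116514-90116573 and far from the other Ugt1a6b probe, and which transcripts of the locus it read was not tested. It was at 8.47, 8.56 and 8.70 in non-tumour liver, 8.49, 8.54 and 8.53 in normal liver and 7.54, 7.31 and 7.52 in tumours, and fell by 1.12 ± 0.09 (adjusted p = 6.29e-06) and by 1.07 ± 0.09 against normal liver (adjusted p = 9.07e-06). The dimmer Ugt1a6b probe, at chr1:90004249-90004308 (mm9), fell by 2.69 ± 0.36 (adjusted p = 0.000164 over all probes). Ugt1a6a was below background in all tumours and was at -2.81, -2.38 and -2.24 in non-tumour liver and -2.04, -1.53 and -1.84 in normal liver. It was at least 1.96-fold lower in tumours (adjusted p = 0.00918, and 0.0632 with the sample number as a block). Ugt1a10 was at -0.87, -0.83 and 0.88 in non-tumour liver and -2.99, -4.35 and -3.43 in tumours, above background in 1 of them, and fell by 3.32 ± 0.49 (adjusted p = 0.00033). Another Ugt1a10 probe, at chr1:89952720-89952779 (mm9), was above background on no array, so the probes of this gene disagree. No probe of the array carries the symbol of Ugt1a1, the bilirubin enzyme.

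Of 12 sulfotransferases tested, 5 were called higher and 5 lower than in non-tumour liver, and their median difference was -0.45. Of the 5 called higher, Sult2a1, Sult2a3, Sult2a6 and Sult2b1 passed the filter through the tumours alone, which fixed their direction. The probe that stands for Sult4a1 was above background in every group. The largest rise of all 62 members was in Sult2a6, a member of the hydroxysteroid and bile acid sulfotransferases on chromosome 7. It was above background on no array outside tumours, with measured values of -5.45 to -3.76, and at 3.03, 4.48 and 3.86 in tumours, all 3 of which were above background. The level in tumours was at least 137-fold that of non-tumour liver (adjusted p = 1.66e-07) and at least 124-fold that of normal liver (adjusted p = 2.74e-07). Sult2a1, of the same subfamily, was at -0.84, 1.09 and -0.02 in tumours and below background elsewhere, at least 10.4-fold higher than in non-tumour liver (adjusted p = 2.58e-06) and at least 9.48-fold than in normal liver (adjusted p = 3.51e-06). Sult2a3 was at -2.82, -1.61 and -1.74 in tumours, at least 2.37-fold higher than in non-tumour liver (adjusted p = 0.000496). Elsewhere it was below background, at -5.40 to -2.94, the highest in control-line sample 1. Against normal liver its call was lost with normexp background correction (0.36, adjusted p = 0.0796). The annotated position of its probe spans 24 bases.

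The probes of Sult2a1 and Sult2a4 are printed because they differ at only 3 of the 54 bases they share, given in capitals, and the Sult2a6 probe because it carries the largest rise:
Sult2a1 probe, chr7:14381602-14381661 (mm9, minus strand): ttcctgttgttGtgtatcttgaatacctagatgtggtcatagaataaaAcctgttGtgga
Sult2a4 probe, chr7:14495026-14495085 (mm9, minus strand): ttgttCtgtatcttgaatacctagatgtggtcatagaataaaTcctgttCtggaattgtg
Sult2a6 probe, chr7:14807923-14811254 (mm9, minus strand): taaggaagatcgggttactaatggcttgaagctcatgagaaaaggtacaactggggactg
The Sult2a6 position spans 3332 bases for 60 bases of probe, so the annotation places it in separate pieces. Another Sult2a6 probe, at chr7:14835693-14835752, was above background on no array, tumours included, so the 3 probes of this gene disagree. The Sult2a4 probe was above background in 1 of 3 tumours and in none of the other 9 arrays, and was not tested. Whether the Sult2a1 probe also bound Sult2a4 RNA was not tested.

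Sult2a7, the last tested gene of that cluster, went the other way. It was at 0.93, 0.86 and 1.67 in non-tumour liver, 0.39, 0.47 and -0.07 in normal liver, 1.03, 0.57 and 1.08 in control-line non-tumour liver and, below background, at -4.01, -4.22 and -3.74 in tumours. No tumour reached the range of the other arrays. It was at least 24.3-fold lower in tumours than in non-tumour liver (adjusted p = 1.85e-07) and at least 13.2-fold lower than in normal liver (adjusted p = 7.47e-07). The probes of the cluster span 669 kb. Since its 3 genes called higher were tested through the tumours alone, their count says nothing about the cluster.

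Outside that cluster, Sult2b1, a cholesterol and pregnenolone sulfotransferase better known from skin, was at -0.60, 1.0 and 0.32 in tumours and below background on the other 9 arrays. It was at least 11.6-fold higher than in non-tumour liver (adjusted p = 9.05e-07) and at least 10.6-fold higher than in normal liver (adjusted p = 2.92e-06). Sult2b1 too was tested through the tumours alone, so the filter fixed its direction. Sult4a1, a brain member of the family, was at -1.57, -1.38 and -1.75 in non-tumour liver, -1.42, -1.65 and -1.19 in normal liver and 1.97, 0.98 and 0.82 in tumours, and rose by 2.83 ± 0.26 (7.11-fold, adjusted p = 1.43e-05). A dimmer Sult4a1 probe was above background on the tumour arrays alone, and a further one in 1 tumour and on no other array.

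Sult5a1 was at 2.57, 2.37 and 1.69 in non-tumour liver, 2.60, 2.46 and 3.1 in normal liver, 1.51, 1.75 and 2.43 in control-line non-tumour liver and -4.65, -3.74 and -2.80 in tumours, of which 1 was above background, so the size of its fall rests in part on signals under the detection limit. It fell by 5.94 ± 0.43 (61.6-fold, adjusted p = 2.94e-06) and fell by 6.45 ± 0.43 against normal liver (adjusted p = 1.96e-06). Another Sult5a1 probe, at chr8:125681171-125681230 (mm9), was above background on 1 arsenite-line non-tumour array and on no other. The probes of this gene thus disagree. The probe behind the fall is:
Sult5a1 probe, chr8:125666951-125667010 (mm9, minus strand): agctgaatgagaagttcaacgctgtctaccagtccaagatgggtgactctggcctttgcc

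Of the phenol sulfotransferases, Sult1b1, which also acts on thyroid hormones, was at 4.27, 4.25 and 4.10 in non-tumour liver, 4.28, 4.12 and 4.12 in normal liver and 1.28, 1.68 and 2.02 in tumours. It fell by 2.55 ± 0.17 (5.86-fold, adjusted p = 1.84e-06) and by 2.51 ± 0.17 against normal liver (adjusted p = 2.2e-06). Its chromosome 5 neighbour Sult1d1, a catecholamine enzyme, was at 2.99, 2.71 and 3.44 in non-tumour liver and 1.70, 1.31 and 2.37 in tumours, and fell by 1.25 ± 0.25 (adjusted p = 0.0021). Sult1c2 was at 2.0, 2.46 and 2.74 in non-tumour liver and 0.76, 1.60 and 1.91 in tumours, and fell by 0.98 ± 0.26 (adjusted p = 0.0116). The tumours lay below the non-tumour arrays for all 3 genes.

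Sult1a1, the main phenol sulfotransferase, was at 6.87, 7.08 and 7.32 in non-tumour liver, 6.91, 6.95 and 6.90 in normal liver and 6.29, 6.93 and 7.20 in tumours, and was not called (-0.29 ± 0.20, adjusted p = 0.27). Only tumour 1 lay below the other arrays. Sult1e1, the oestrogen sulfotransferase, was at -0.47, -5.08 and -2.32 in the 3 tumours, which spanned more than the other 9 arrays together (-3.25 to -0.64). Its difference of -0.61 ± 0.93 (adjusted p = 0.618) turned to 0.62 without tumour 2, and was not called either way. Against normal liver Sult1e1 was called lower without tumour 1 alone (-2.35, adjusted p = 0.0315).

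Carboxylesterases were mostly lower as well. Of 15 tested, 11 were called lower and 3 higher than in non-tumour liver, with a median of -1.82, or -1.68 with Ces1h and Ces4a at their bound. The Ces1 genes, which lie next to each other on chromosome 8, over 494 kb together with Ces5a, and include lipid ester hydrolases of hepatocytes, were all lower where tested, in 7 of 7. Ces1g, which hydrolyses triglyceride and cholesteryl ester, was at 4.90, 4.54 and 4.71 in non-tumour liver, 4.62, 4.52 and 4.56 in normal liver, 4.54, 4.72 and 4.65 in control-line non-tumour liver and -1.54, -1.85 and -0.07 in tumours. It fell by 5.87 ± 0.36 (58.3-fold, adjusted p = 1.01e-06) and by 5.72 ± 0.36 against normal liver (adjusted p = 1.36e-06). Ces1e was at 6.78, 7.19 and 6.59 in non-tumour liver and -0.05, 1.02 and 2.21 in tumours, and fell by 5.79 ± 0.44 (55.4-fold, adjusted p = 3.82e-06). Ces1f had the smallest adjusted p of the 62 members: at 7.14, 7.25 and 6.98 in non-tumour liver, 7.16, 7.10 and 7.02 in normal liver and 3.11, 3.33 and 3.63 in tumours, it fell by 3.77 ± 0.14 (adjusted p = 4.11e-08) and by 3.73 ± 0.14 against normal liver (adjusted p = 4.9e-08). In each case tumours lay far below the other arrays.

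Ces1d, a triglyceride hydrolase of lipoprotein assembly, was at 7.5, 7.43 and 7.59 in non-tumour liver, 7.45, 7.40 and 7.38 in normal liver and 6.31, 5.46 and 5.73 in tumours, and fell by 1.68 ± 0.18 (adjusted p = 3.61e-05) and by 1.58 ± 0.18 against normal liver (adjusted p = 5.53e-05). Ces1b and Ces1c fell by 1.82 ± 0.19 and 1.47 ± 0.17. Probes of these neighbours resemble each other, with 49 of 55 bases shared between Ces1b and Ces1c and 31 of 34 between Ces1c and Ces1d. A Ces1d and a Ces1h probe share 44 of 54. Only probes were compared with each other, and whether any of the Ces1 probes also bound another gene's RNA was not tested. The probes of Ces1e and Ces1g, which carry the largest falls of the cluster, had no such match to a probe of another member:
Ces1e probe, chr8:95725207-95725266 (mm9, minus strand): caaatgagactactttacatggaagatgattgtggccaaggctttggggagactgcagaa
Ces1g probe, chr8:95826722-95826781 (mm9, minus strand): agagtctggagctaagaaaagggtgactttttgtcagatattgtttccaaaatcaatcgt
Ces1h was above background in no tumour and at least 2.12-fold lower (adjusted p = 0.000379).

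The Ces3 genes, major lipid hydrolases of mouse hepatocytes, fell by similar amounts. Ces3a was at 9.61, 9.54 and 9.23 in non-tumour liver, 9.73, 9.53 and 9.59 in normal liver and 5.99, 3.77 and 5.68 in tumours, and fell by 4.31 ± 0.45 (19.9-fold, adjusted p = 3.22e-05) and by 4.47 ± 0.45 against normal liver (adjusted p = 2.64e-05). Ces3b was at 6.83, 6.84 and 6.08 in non-tumour liver, 6.71, 6.60 and 6.60 in normal liver and 2.47, 0.55 and 2.49 in tumours, and fell by 4.75 ± 0.45 (26.8-fold, adjusted p = 1.61e-05) and 4.80 ± 0.45 (adjusted p = 1.63e-05). Tumour 2 was the lowest tumour for both. Ces4a, near the detection limit throughout, was at least 1.18-fold lower than in non-tumour liver (adjusted p = 0.0362, and 0.0739 with the sample number as a block). That call was lost without non-tumour sample 2 or 3 or tumour 1 or 2 (adjusted p = 0.0695 to 0.132).

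The Ces2 genes, whose products prefer small acyl groups and activate prodrugs, moved in both directions within 1 stretch of chromosome 8. Ces2a was at 7.75, 7.72 and 7.37 in non-tumour liver, 7.71, 7.5 and 7.53 in normal liver and 4.44, 4.62 and 5.0 in tumours, and fell by 2.93 ± 0.16 (7.6-fold, adjusted p = 4.5e-07) and by 2.89 ± 0.16 against normal liver (adjusted p = 5.17e-07). Ces2e was at 6.29, 6.19 and 6.11 in non-tumour liver, 6.37, 6.20 and 5.98 in normal liver and 8.21, 8.36 and 8.05 in tumours, and rose by 2.01 ± 0.13 (4.03-fold, adjusted p = 1.78e-06) and 2.02 ± 0.13 (adjusted p = 1.88e-06). Ces2b was at 2.47, 2.35 and 2.77 in non-tumour liver, 2.88, 2.78 and 2.46 in normal liver and 4.79, 4.74 and 4.40 in tumours, and rose by 2.11 ± 0.17 (4.33-fold, adjusted p = 6.73e-06) and 1.94 ± 0.17 (adjusted p = 1.26e-05). Ces2g was at 2.23, 2.35 and 2.25 in non-tumour liver, 2.48, 2.45 and 2.34 in normal liver and 3.14, 3.35 and 3.29 in tumours, and rose by 0.98 ± 0.11 (adjusted p = 4.84e-05) and 0.84 ± 0.11 (adjusted p = 0.000142). For each of these 4 genes no tumour overlapped a non-tumour or normal sample.

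**Figure D3:**
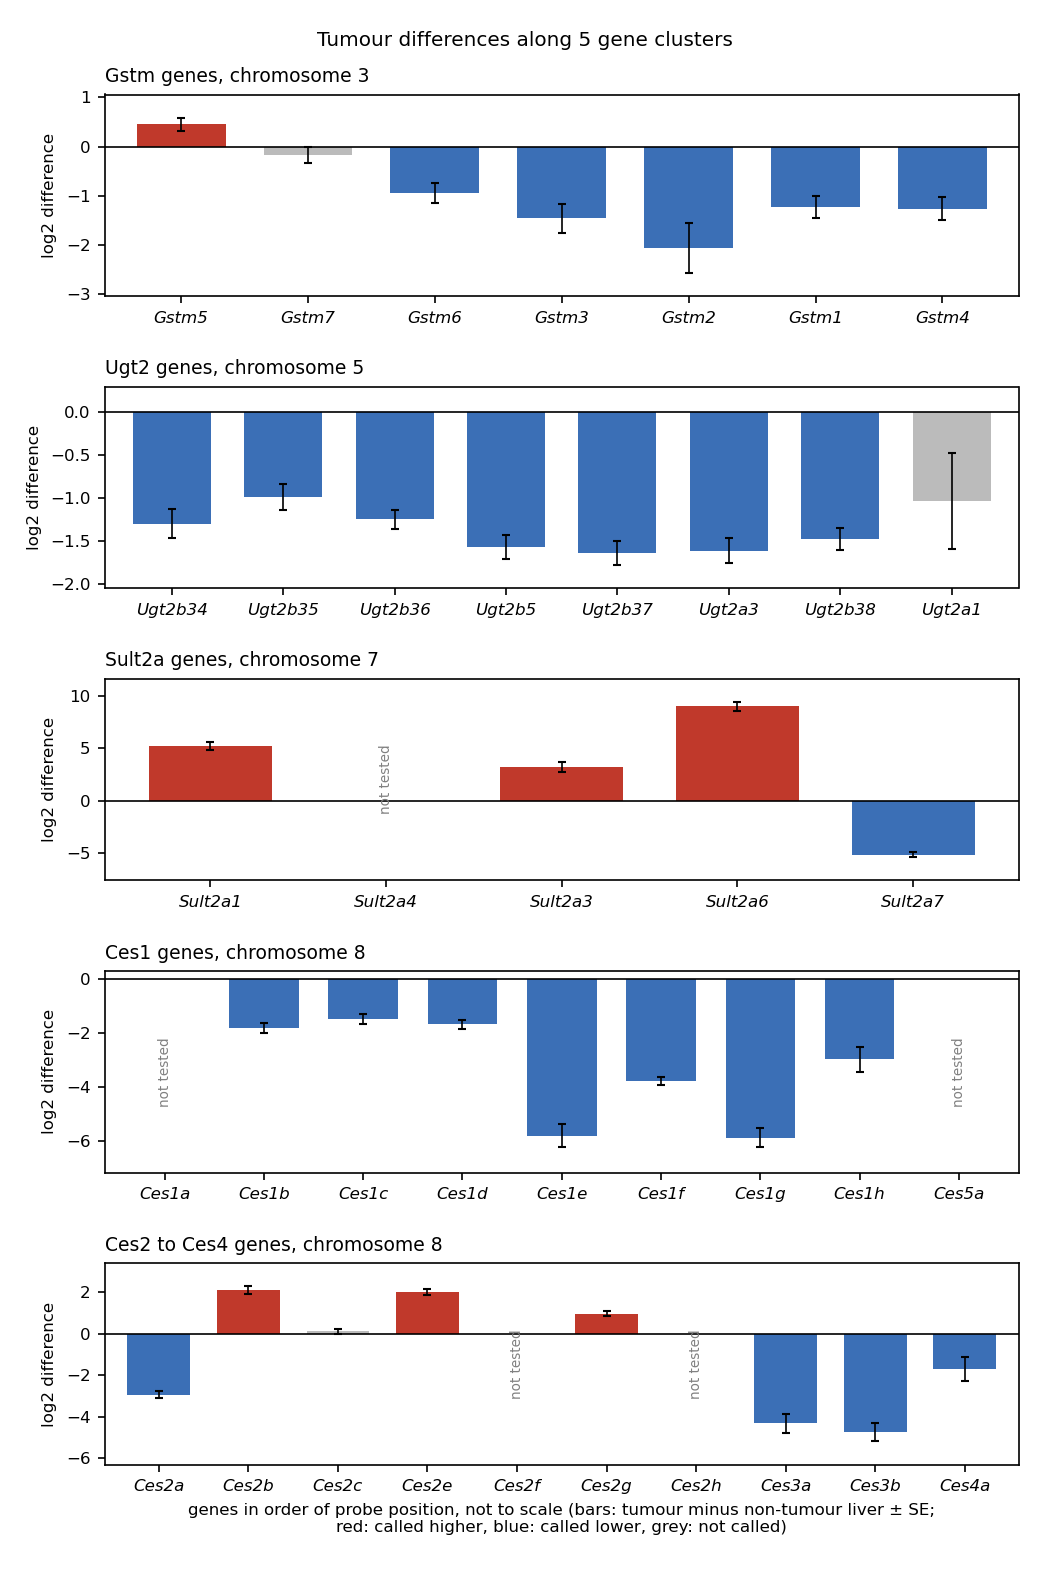
Bars give the log2 difference between tumours and non-tumour liver of the arsenite line, with standard errors, for the genes of 5 clusters in the order of their probes (mm9), not to scale. Values of genes below background in 1 group, such as Sult2a6 and Sult2a7, rest in part on signals under the detection limit. Bars point the same way across the 7 tested Ces1 genes and the 8 tested Ugt2 genes, and both ways in the Gstm and Ces2 to Ces4 clusters.

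Ces2c, an inducible liver acylcarnitine hydrolase, gave different answers by probe. The upstream and brightest of its 3 probes, which stands for the gene, was at 6.83, 6.71 and 6.37 in non-tumour liver, 6.66, 6.57 and 6.51 in normal liver and 6.83, 6.83 and 6.61 in tumours, with overlapping groups and a difference of 0.12 ± 0.13 (adjusted p = 0.456). Its 95% interval of -0.16 to 0.40 lay within a 2-fold change. Under quantile normalisation this probe was called higher (0.41, adjusted p = 0.0118), and against normal liver also (0.46, adjusted p = 0.00633), as it was there with the percentile of detected probes (0.32, adjusted p = 0.0454). The downstream and most downstream probes start 153 and 187 bases further on, overlap by 26 bases and rose in tumours by 2.13 ± 0.16 and 2.13 ± 0.19 (adjusted p = 3.68e-06 and 1.08e-05 over all probes). The first of them shares 31 of 34 overlapping bases with the Ces2b probe, which lies 15.7 kb upstream and rose by 2.11 ± 0.17. These 4 sequences are printed because the call for Ces2c turns on them. Capitals mark the 3 bases at which the Ces2b probe and the downstream Ces2c probe differ within their overlap and, in the last sequence, the 26 bases that the most downstream probe shares with the downstream one:
Ces2c upstream probe, chr8:107378105-107378164 (mm9, plus strand): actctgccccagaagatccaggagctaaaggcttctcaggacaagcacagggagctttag
Ces2c downstream probe, chr8:107378258-107378317 (mm9, plus strand): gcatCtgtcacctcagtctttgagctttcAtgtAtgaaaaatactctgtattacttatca
Ces2b probe, chr8:107362421-107362480 (mm9, plus strand): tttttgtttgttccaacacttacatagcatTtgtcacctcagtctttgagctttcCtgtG
Ces2c most downstream probe, chr8:107378292-107378351 (mm9, plus strand): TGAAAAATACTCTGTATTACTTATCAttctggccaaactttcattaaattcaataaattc
Whether Ces2b RNA bound the downstream Ces2c probes was not tested.

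**Figure D4:**
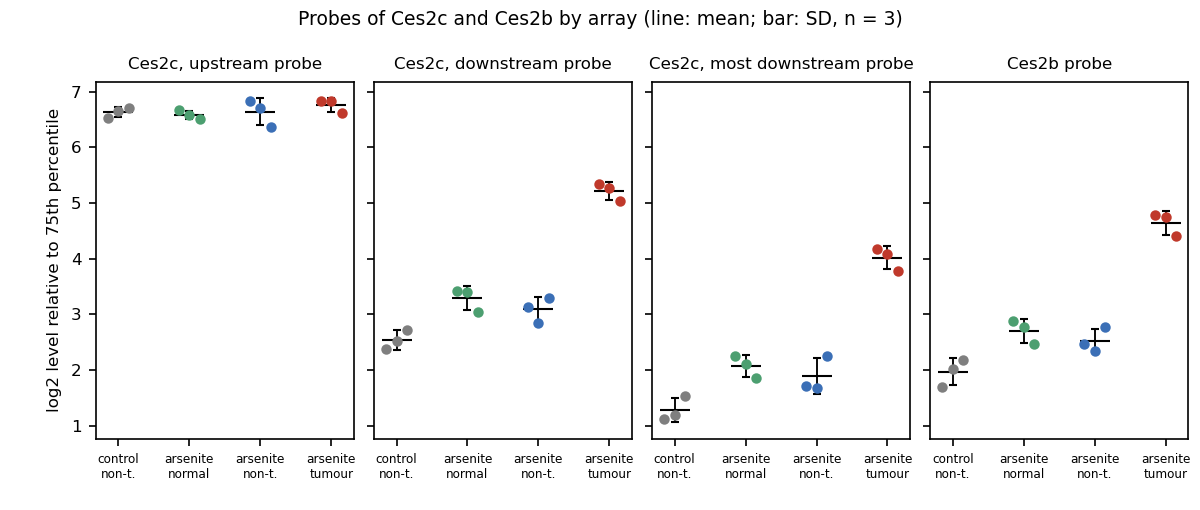
Log2 level of the 3 Ces2c probes and the Ces2b probe on each array, with the mean and SD of 3 arrays per group. The upstream Ces2c probe lies between 6.37 and 6.83 in all groups, while the other 3 panels share 1 pattern, lowest in control-line non-tumour liver and highest in tumours. The difference between the lines in non-tumour liver was called for none of these probes, and the bases shared among them are given above.

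Among the epoxide hydrolases, Ephx2, the soluble enzyme of fatty acid epoxides, was at 6.93, 6.91 and 6.64 in non-tumour liver, 6.97, 6.85 and 6.83 in normal liver and 5.16, 4.42 and 4.59 in tumours. All tumours were below the rest, and Ephx2 fell by 2.10 ± 0.17 (4.28-fold, adjusted p = 6.25e-06) and by 2.16 ± 0.17 against normal liver (adjusted p = 5.35e-06). Ephx1, the microsomal enzyme of xenobiotic epoxides, was at 8.32, 7.71 and 7.84 in non-tumour liver, 8.05, 7.93 and 7.90 in normal liver and 7.74, 7.40 and 7.13 in tumours, and tumour 1 lay inside the non-tumour range. Its difference of -0.53 ± 0.18 (adjusted p = 0.0337) was no longer called without non-tumour sample 1 (-0.34, adjusted p = 0.125), without tumour 2 (adjusted p = 0.0784) or without tumour 3 (adjusted p = 0.119), nor under quantile normalisation (-0.31, adjusted p = 0.18). Against normal liver the difference of -0.53 ± 0.18 (adjusted p = 0.0317) lost its call without any 1 normal sample, tumour 2 or tumour 3 (adjusted p = 0.0584 to 0.112). Ephx3 was not called (-0.09 ± 0.17, adjusted p = 0.69).

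Over the tested members the tumours differed among themselves more than the other groups did. Values below background on tumour arrays enter these figures, and the SD over all genes was not computed. Over all genes 2 tumours correlated at 0.982 to 0.987, beside 0.986 to 0.993 for 2 arrays outside tumours. The median SD over the 62 members was 0.383 in tumours, 0.198 in arsenite-line non-tumour liver, 0.111 in normal liver and 0.182 in control-line non-tumour liver. Tumour 1 had the highest value of the 3 in 27 members, tumour 3 in 24 and tumour 2 in 11. Tumour 2 had the lowest value in 31 members, tumour 1 in 23 and tumour 3 in 8, and among the 12 sulfotransferases tumour 1 was lowest in 8.

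Outside tumours no member was called. Non-tumour and normal liver of the arsenite line were compared to see whether liver beside tumours differed from liver without them. There 0 of 62 members and 0% of all genes were called, and the smallest adjusted p of a member was 0.527. At an unadjusted p under 0.05 there were 2 members, or 3.23%, beside 6.84% of all genes. These were Sult2a7, at 0.93, 0.86 and 1.67 against 0.39, 0.47 and -0.07 (difference 0.89 ± 0.24), and Sult2b1, which was below background on all 6 arrays. Samples of the groups did not overlap in 9 members, or 14.5%, beside 15.2% of all genes. In 45 of 62 members the 95% interval of the difference stayed within a 2-fold change either way. For the other 17, among them Ces1e, Ces3a, Gstm2, Gstp1 and Sult5a1, the interval reached a 2-fold change. A gene's spread is estimated from all 4 groups together, so that a gene with a wide spread between tumours has a wide interval here too.

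The 2 lines were compared in non-tumour liver to see whether the exposure of the F0 generation left a difference in F2 liver. These 6 arrays lay on 1 slide. Again 0 of 62 members were called, beside 1 of 18101 genes, or 0.00552%, and the smallest adjusted p of a member was 0.483. Ces2b, Sult2a3 and Sult2b1 had an unadjusted p under 0.05, or 4.84% of members beside 5.64% of all genes, and Sult2a3 and Sult2b1 were below background on all 6 arrays. Ces2b stood at 2.47, 2.35 and 2.77 in the arsenite line and 1.70, 2.02 and 2.18 in the control line, so the groups did not overlap, with a difference of 0.56 ± 0.17 that did not pass (adjusted p = 0.641). The downstream and most downstream Ces2c probes, whose sequences are given above, differed by 0.55 and 0.61 (adjusted p = 0.514 and 0.563 over all probes). The 95% interval lay within a 2-fold change for 47 of 62 members. For Gsta3 it was -0.45 to 0.39, for Gsto1 -0.26 to 0.25, for Ugt1a6b -0.20 to 0.21, for Ces2a -0.38 to 0.32 and for Ephx2 -0.49 to 0.26, whereas for Gstp1 it was -1.01 to 0.62.

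**Figure D5:**
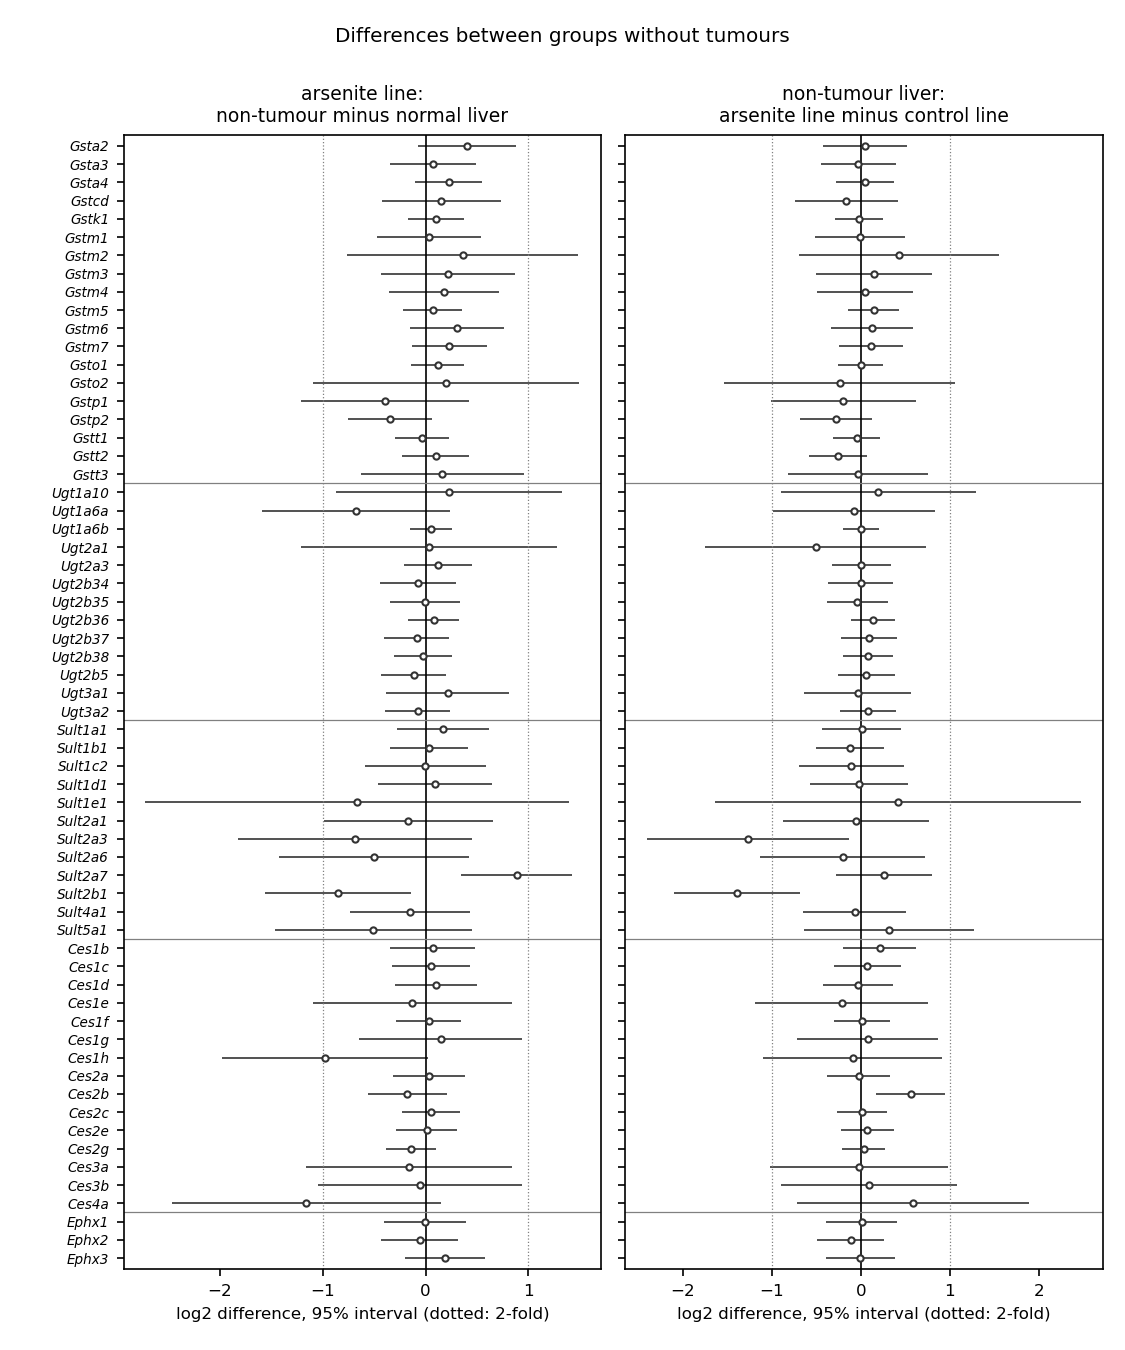
Log2 differences with 95% intervals of the 62 tested members in the comparisons without tumours, non-tumour minus normal liver of the arsenite line (left) and arsenite minus control line in non-tumour liver (right). Open circles were not called. Most intervals lie between the dotted lines of a 2-fold change, in 45 and 47 members.

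Genes that supply or accompany these enzymes were counted in the tumour against non-tumour comparison, where 47.1% of all genes were called. The share called was 75% for UDP-glucuronate supply, 40% for PAPS supply, 75% for glutathione supply and 60% for exporters. It was 90.9% for other transferases and phase II enzymes and 25% for deconjugating enzymes. Each list is short. Of 4 tested genes of UDP-glucuronate supply, 3 were called lower: the UDP-glucose dehydrogenase Ugdh by 1.21, and the nucleotide sugar transporters Slc35d1 by 0.88 and Slc35a3 by 0.57. Of 5 genes of PAPS supply, the synthase Papss2 fell by 0.62 and the nucleotidase Bpnt1 by 0.86, and 3 were not called. Of 4 genes of glutathione supply, the synthetase Gss rose by 0.87, the ligase subunit Gclm fell by 0.96 and the reductase Gsr by 0.60. Of 5 exporters, Abcc3 fell by 1.42, Abcc6 by 2.32 and Abcg2 by 0.57, and 2 were not called. Other transferases and phase II enzymes were lower in 10 of 11 tested, among them Glyat by 1.34, Inmt by 3.77 and Mgst1 by 1.89. Of 4 deconjugating enzymes, the beta-glucuronidase Gusb rose by 0.85 and the others were not called.

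Of 11 regulators of these genes, 1 was called higher and 3 lower, or 36.4% beside 47.1% of all genes. The antioxidant response factor Nfe2l2 rose by 1.02 ± 0.13 (adjusted p = 8.94e-05). The constitutive androstane receptor Nr1i3 fell by 3.31 ± 0.36 (adjusted p = 4.42e-05) and its partner Rxra by 1.04 ± 0.12 (adjusted p = 7.78e-05). Against normal liver 1 of the 11 was called higher and 5 lower, or 54.5% beside 48.1% of all genes.

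Of the 10 members not tested, Ces2f, Ces5a, Ephx4, Gstt4, Sult1c1, Sult6b1 and Ugt8a were above background on no array. Ces1a was above background on 1 normal liver array, Sult2a4 in 1 tumour and Ces2h in 2 tumours. Where a member had several probes in the fit, as 20 did, their tumour differences lay within 0.5 of each other in 15 and more than 1 apart in 3, Ces2c, Ugt1a6b and Sult2a6, and had opposite signs in 0. The second Sult2a6 probe was called higher as well. Probes that did not pass the filter, among them some of Gstm6, Sult2a6, Sult4a1, Sult5a1 and Ugt1a10, are outside these counts of agreement.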

How the data were processed

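Total RNA of 12 liver samples, 100 ng each per the labels, was labelled with Cy3 by a low-input kit and hybridised to 1-colour Agilent mouse arrays. The deposited scanner files hold spot intensity after the scanner software's background subtraction, by Feature Extraction 10.7.3.1 per the file headers and 12.0.3.1 per the submitters' processing notes. The value table deposited by the authors holds a linear ratio, checked here to be that signal over the array's 75th percentile of all spots, and served as an alternative. Its column medians lay between 0.0693 and 0.1004.

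Here log2 processed signal was taken minus each array's 75th percentile over spots outside the controls. Spots marked as outliers were left out, spots of a probe averaged, and probes kept if every array of 1 or more groups read well above background, which left 24144 probes. Each gene took the values of its brightest probe by mean. All 12 arrays entered 1 limma fit (version 3.58.1, R 4.3.3) with a mean per group, and p-values were adjusted by Benjamini-Hochberg over 18101 genes. Standard errors of comparisons without tumours thus also rest on the spread of the tumours. The number of arrays, 3 a group, limits the precision. The script was tested on simulated data. Figures were drawn with Python 3.11.15 and matplotlib 3.10.9.

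Where no array of a group was well above background, the ratio is a bound, the mean of the bright group against, per array, the higher of the lowest signal above background and the probe's own. The probe coordinates are those of the files (mm9), which do not give exon, intron or UTR.

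Members and gene lists were chosen with earlier results of these data known. Any member could be named. Values by array were given for up to 3 called members of a family and direction with the smallest adjusted p whose groups did not overlap, and for a set of well-known enzymes whatever their values. Genes of accompanying pathways were named where called, up to 4 a list, and some are not reported here. Samples share numbers across groups. Deviations from group means of same-numbered tumours and non-tumour livers correlated at 0.14 to 0.23, against -0.16 to -0.00398 for unequal numbers, which meets the rule for pairing there. Such deviations cancel within a group, so positive values for equal numbers force the others negative on average, and the contrast is no separate evidence. The main fit did not use the pairing. In the other comparisons same-numbered samples correlated at -0.0937 to 0.122. Alternatives covered background correction, scaling, filter, probe choice, arrays in the fit, array weights, the sample number as a block and each sample left out.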

Additional observations from a re-analysis of the deposited data

Results flagged for a closer look

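Ces2h was not tested, because it was above background on all 3 arrays of no group. Its probe was above background in 2 of 3 tumours and in 0 of the 9 other arrays, a signal in a gene that no comparison above used.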

How the results depend on the processing

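In each tumour comparison 51 members were called. Of these, 41 kept their call against non-tumour liver and 44 against normal liver under every alternative that tested them, and none of the others changed direction. Members not above background on all 12 arrays were not tested under that filter, so these counts do not say that their calls would withstand it. The main filter fixed the direction of some of these calls, such as those of Sult2a6 and, against normal liver, of Ces4a. Calls were lost in at least 1 setting for Ces4a, Ephx1, Gsta4, Gstm2, Gstm5, Gstm6, Gsto2, Gstt2, Sult1c2 and Ugt1a6a against non-tumour liver, and for Ephx1, Gstm2, Gstm6, Gsto2, Gstp2, Gstt2 and Sult2a3 against normal liver. With genes required above background on all 12 arrays, members called higher numbered 5 in both tumour comparisons in place of 9, since 48 of 62 members were tested. Leaving out 1 sample gave 8 to 9 members higher and 38 to 41 lower against non-tumour liver, 9 to 10 higher and 36 to 43 lower against normal liver, and 0 to 0 in the other comparisons. The signal over background limits dim genes, whose ratios are bounds.

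The sample number as a block pairs same-numbered tumours and non-tumour livers, though no label says that they came from the same mouse. With it, 8 members were called higher and 36 lower on the 6 arrays of that comparison, and 9 and 41 on all 12. Beside the calls named with their blocked p above, it changed no other call there. Against normal liver the block gave 9 higher and 41 lower members on the 6 arrays of that comparison, with Gstp1 called lower (adjusted p = 0.016). In the comparisons without tumours 0 were called.

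Members that turned direction were uncalled in each case, and the cause was not tested. Against non-tumour liver, the difference of Ces2c ranged from -0.0138 without non-tumour sample 3 to 0.220 without non-tumour sample 1, that of Ephx3 from -0.246 to 0.0325 without 1 sample and was 0.0655 with the percentile of detected probes, that of Sult1e1 ranged from -1.69 without tumour 1 to 0.616 without tumour 2, and that of Gstcd was -0.0814 with normexp. Against normal liver, leaving out 1 sample gave -0.0350 to 0.208 for Ephx3, -0.0316 to 0.175 for Gstm7, -0.547 to 0.107 for Gstt3 and -0.311 to 0.141 for Sult1a1. There Gstcd was -0.136 with normexp, Gstm7 -0.0619 as a mean of its probes and -0.374 by another probe, Gstt3 0.0258 with quantile normalisation, and Sult1a1 0.0274 with the percentile of detected probes and 0.163 with quantile normalisation. The fit of single probes was chosen after seeing the data.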
